A study of Mus musculus with 4 samples.

Results

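Polycomb repressive complex 1 (PRC1) was followed through 10 of its subunit genes in mouse embryonic stem cells depleted of Chd4. The members were all probe sets that the platform annotation assigns to 1 of these genes and to no other, which gave 24 probe sets of 45037 that are not array controls. The genes were Ring1, Rnf2, Bmi1, Pcgf1, Pcgf2, Pcgf3, Pcgf5, Pcgf6, Cbx7 and Phc1. Of these, 7 had several probe sets and Ring1, Pcgf1 and Phc1 had 1 each.

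The cells were J1 embryonic stem cells of the inducible RNAi line Chd4i-1, grown on gelatin with 15% serum and leukaemia inhibitory factor. Both groups carried the RNAi construct. The Chd4 RNAi group (2 arrays) was given doxycycline at 5 ng/ml over 3 days, and the controls (2 arrays) were left without it. Arrays within a group are described as biological duplicates, all from 1 line. No doxycycline-treated line without the construct was analysed here, so effects of doxycycline and of Chd4 loss cannot be told apart. Chd4 encodes the remodelling ATPase of NuRD, a chromatin complex that also deacetylates histones, and the comparison asks which transcripts differ when it is depleted.

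PRC1 is a ubiquitin ligase of chromatin. Its core is a RING protein, encoded by Ring1 or Rnf2, paired with 1 of the Polycomb group RING finger (PCGF) proteins, and it attaches ubiquitin to histone H2A. The PCGF partner sets which other subunits join: Bmi1 and Pcgf2 build the canonical complex with a chromobox (CBX) reader of methylated histone H3 and a polyhomeotic (PHC) protein, while Pcgf1, Pcgf3, Pcgf5 and Pcgf6 build variant complexes with Rybp or Yaf2. In embryonic stem cells the complex is known for holding developmental regulators such as the Hox genes silent, and its Pcgf6 form for silencing germ-cell genes.

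Values are MAS5 signals, a linear measure of the brightness of a probe set, on a scale shared by the arrays. Their trimmed mean lay between 496.5 and 497.2 on the 4 arrays. With 2 arrays a group, precision is limited by their number. Signals of different probe sets depend on their probes and are not compared as transcript amounts. All 3 Chd4 probe sets were lower in both RNAi arrays, at 917.7 and 814 against 445 and 394 for 1438476_a_at, 894 and 822 against 551 and 420.2 for 1436343_at, and 2215 and 1826 against 1155 and 1479.9 for 1451295_a_at. They stood at 48.5%, 56.1% and 65.0% of control (limma adjusted p = 0.000244, 0.00232 and 0.00638). All 8 embryonic stem cell markers were bright, with mean signals of 5194 to 24163 in the controls. Of the 8 fibroblast, 8 primitive endoderm, 8 trophectoderm and 7 neural markers on the array, 2, 2, 6 and 3 lay above the median signal of the array (71.8).

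A probe set was tested where its mean log2 signal lay among the brightest 60% (controls of the array left out), at a signal of 42.4 or more. Of the 24 PRC1 probe sets 19 were tested, among 27023 in all, and 5 dim ones were not. At an adjusted p under 0.05 in limma, 1 PRC1 probe set was higher and 3 were lower in Chd4 RNAi cells, or 4 of 19 (21.1%). Over all probe sets tested 14.2% were called, 7.46% as higher and 6.77% as lower. The probe set that rose belongs to Pcgf6, and those that fell to Pcgf1, Bmi1 and Rnf2. The median log2 difference of the 19 was 0.042, against -0.012 over all probe sets tested, and their median absolute difference was 0.17 against 0.22. At an unadjusted p under 0.05 there were 6, against 28.3% of all probe sets tested. The groups did not overlap for 9 of the 19, or 47.4%, against 55.9% of all. Without overlap, 3 of the 19 were higher and 6 of the 19 lower, against 27.5% and 28.4% of all probe sets tested. With a variance model that has no intensity trend, limma called 0 of the 19 and 0 of all 27023 probe sets, with 1 PRC1 probe set higher and 2 lower at an unadjusted p under 0.05 (2893 and 2935 in all), so that every probe-set call given here depends on that trend. With 1 probe set per gene, the call of Ddx4 alone among the called genes of the related lists held without it (adjusted p = 0.0294).

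**Figure D1:**
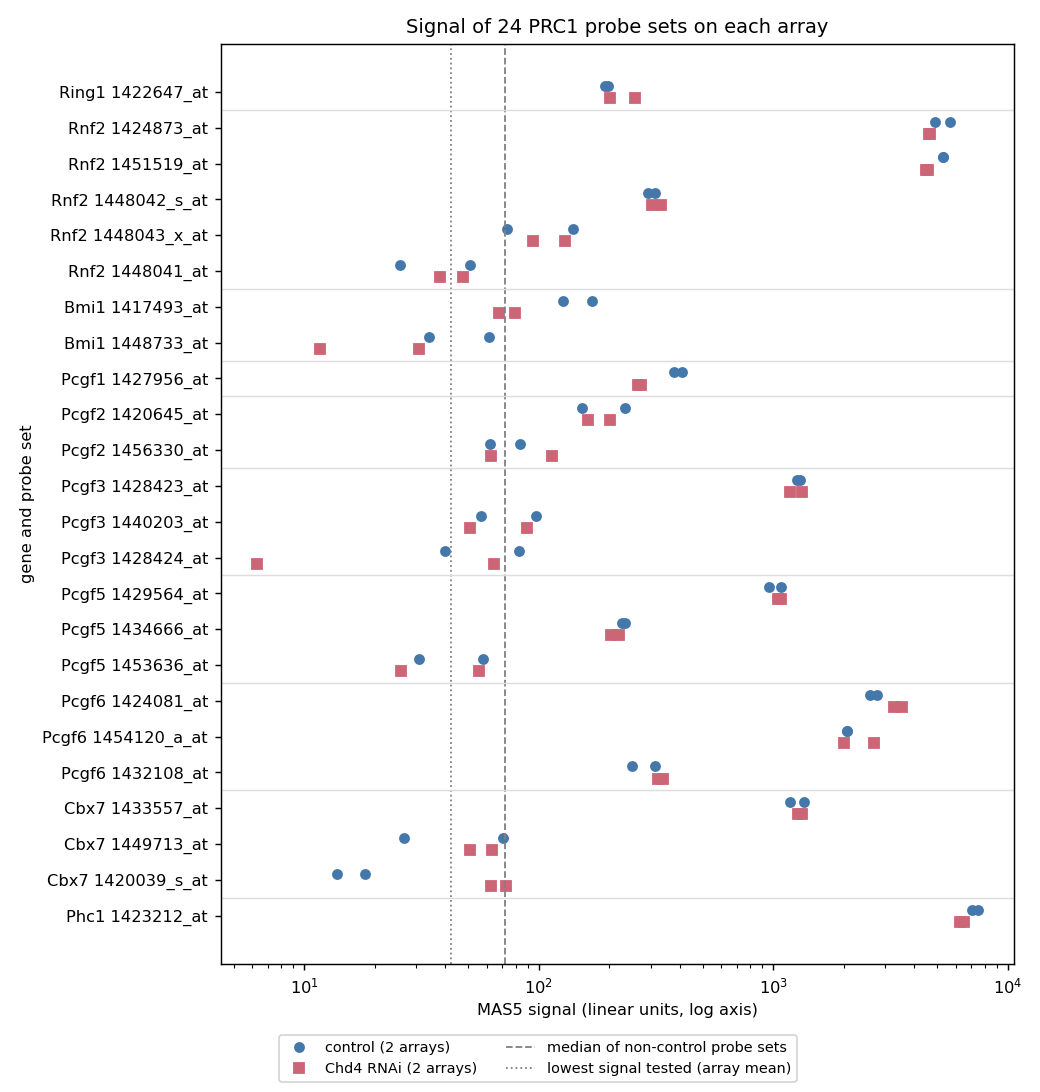
MAS5 signal (linear units on a log axis) of the 24 PRC1 probe sets, with circles for the 2 control arrays and squares for the 2 Chd4 RNAi arrays; the dashed line is the median of non-control probe sets (71.8) and the dotted line the lowest mean signal tested (42.4). Squares lie apart from circles for Pcgf1, for Bmi1 1417493_at and for Pcgf6 1424081_at, among others, and most dim probe sets overlap. The dim, untested Cbx7 1420039_s_at and Bmi1 1448733_at also lie apart.

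The upstream sequences of 4 member genes are shown because 3 of them, Pcgf6, Bmi1 and Rnf2, had a called probe set, and Pcgf2 is the closest relative of Bmi1. They are the 250 bases before the annotated start, 5′ to 3′ on the strand of the gene, from a table of RefSeq promoters on GRCm38.p6 in which 9 of the 10 genes were matched (all but Pcgf1). Capitals mark matches to the motifs searched on both strands: CACGTG, the E-box read by Myc and Max family dimers, TTCCCGC, an E2F motif, and CCAAT. The windows are chr19:47050907-47051156 (minus strand) for Pcgf6, chr2:18676768-18677017 (plus) for Bmi1, chr11:97699649-97699898 (minus) for Pcgf2 and chr1:151500992-151501241 (minus) for Rnf2.
Pcgf6: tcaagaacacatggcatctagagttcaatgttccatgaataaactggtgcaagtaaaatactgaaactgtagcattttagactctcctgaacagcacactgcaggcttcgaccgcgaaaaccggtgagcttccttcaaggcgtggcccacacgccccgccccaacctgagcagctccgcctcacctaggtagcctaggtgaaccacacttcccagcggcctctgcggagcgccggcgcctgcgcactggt
Bmi1: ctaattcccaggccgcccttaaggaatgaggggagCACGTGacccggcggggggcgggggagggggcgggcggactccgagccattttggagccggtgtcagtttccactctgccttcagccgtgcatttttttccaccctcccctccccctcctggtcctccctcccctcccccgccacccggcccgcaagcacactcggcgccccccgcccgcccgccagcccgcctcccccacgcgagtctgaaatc
Pcgf2: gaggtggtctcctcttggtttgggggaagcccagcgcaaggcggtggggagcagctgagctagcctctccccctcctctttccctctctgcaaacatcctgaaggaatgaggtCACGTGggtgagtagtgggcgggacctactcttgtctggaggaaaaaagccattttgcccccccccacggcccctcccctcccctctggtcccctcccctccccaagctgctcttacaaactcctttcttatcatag
Rnf2: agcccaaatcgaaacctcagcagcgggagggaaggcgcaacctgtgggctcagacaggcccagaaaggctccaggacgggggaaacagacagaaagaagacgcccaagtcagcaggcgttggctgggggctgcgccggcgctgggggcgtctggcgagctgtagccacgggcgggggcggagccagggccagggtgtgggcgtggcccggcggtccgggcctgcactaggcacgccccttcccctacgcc
Bmi1 and Pcgf2 each held 1 E-box, 215 and 137 bases before the start. No other of the 11 upstream windows of member genes had one, and 6.02% of 32851 windows in the table did. The E2F motif was in 1 of the 11, a window of Pcgf5, and in 3.82% of all, and CCAAT was in 2, of Pcgf5 and Cbx7, and in 33.8% of all. The windows of Pcgf6 and Rnf2 held none of the 3 motifs. CpG dinucleotides, to which the Kdm2b subunit of the Pcgf1 form binds when unmethylated, numbered 14 in Pcgf6, 21 in Bmi1, 5 in Pcgf2 and 20 in Rnf2, against a median of 6 over all windows. A match is a description of these letters and binding was not measured.

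The catalytic RING subunits come first. Rnf2 encodes Ring1B, the main ligase of the complex in these cells. Its probe set 1451519_at read 5304 and 5287 in the controls against 4578 and 4468 in the RNAi arrays. Both RNAi signals lay under both control signals, at 85.4% of control, and this probe set fell (log2 difference -0.23 ± 0.057 SE, adjusted p = 0.0210). The other bright probe set of Rnf2, 1424873_at, which the annotation ties to the same source record, read 4889 and 5693 in the controls against 4633 and 4683 in the RNAi arrays. It also did not overlap, yet did not pass (-0.18 ± 0.073, adjusted p = 0.130), with controls that lay farther apart than the group means. Dimmer probe sets of Rnf2 overlapped: 1448042_s_at read 291 and 313 against 304 and 333, and 1448043_x_at read 140.1 and 73.5 against 94.2 and 129. Their log2 differences were 0.074 (95% confidence interval -0.26 to 0.41) and 0.12 (-0.64 to 0.88). The suffixes s and x mark probe sets whose probes can match other transcripts too. The fifth, 1448041_at, was too dim to be tested, at 25.6 and 51.0 against 37.8 and 47.5. The call of 1451519_at ended without control replicate 1 (adjusted p = 0.0932), control replicate 2 (0.0869) or RNAi replicate 2 (0.0644), at log2 differences of -0.23, -0.23 and -0.21. Without control replicate 1, 1424873_at passed (-0.29, adjusted p = 0.0282).

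Ring1 encodes Ring1A, the paralog of Ring1B. Its single probe set read 193 and 197 in the controls against 257 and 201 in the RNAi arrays. The RNAi signals were both above the controls, 1 of them by a small margin, and the difference did not pass (0.22 ± 0.20, 95% confidence interval -0.21 to 0.65, adjusted p = 0.509). Whether Ring1 and Rnf2 differed in response was not tested.

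Among the PCGF subunits of canonical PRC1, Bmi1 had the largest difference of any called member. Bmi1 is known for repressing the Ink4a/Arf locus and for its role in stem cell self-renewal. Its probe set 1417493_at read 126 and 169.6 in the controls against 79.5 and 67.4 in the RNAi arrays. The RNAi signals lay at 50% of control and near the median of the array, and the probe set fell (-1.0 ± 0.29, adjusted p = 0.0413). With signals under 71.8 set to that value the fall was 1.94-fold. The other probe set, 1448733_at, which shares its source record, was too dim to be tested and read 34.1 and 61.6 in the controls against 30.8 and 11.7 in the RNAi arrays, again without overlap. The Bmi1 call rests on dim signals: it ended without control replicate 1 (log2 difference -1.21, adjusted p = 0.0631), without control replicate 2 (-0.79, adjusted p = 0.285), without RNAi replicate 2 (-0.88, adjusted p = 0.0948) and when no probe set was filtered out (adjusted p = 0.0957).

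Pcgf2, also called Mel18, is the canonical partner closest to Bmi1 in sequence. Its brighter probe set read 234 and 153 in the controls against 202 and 163 in the RNAi arrays, so that the RNAi signals lay between the controls. The log2 difference was -0.058, with a 95% confidence interval of -0.59 to 0.48. The dimmer one, 1456330_at, read 83.0 and 61.9 against 62.9 and 114, and the groups overlapped (0.24, interval -0.60 to 1.07). Whether Bmi1 and Pcgf2 differed in response was not tested, and the interval of Pcgf2 (down to -0.59) overlaps that of Bmi1 (-1.64 to -0.36).

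The subunits that complete canonical PRC1 were Cbx7 and Phc1. Cbx7 is the main chromobox reader of self-renewing embryonic stem cells. Its bright probe set, 1433557_at, read 1357 and 1176 in the controls against 1279 and 1323 in the RNAi arrays. The RNAi signals fell within the range of the controls, and the log2 difference of 0.042 had a 95% confidence interval of -0.16 to 0.25. A dim probe set, 1449713_at, overlapped between groups at 70.8 and 26.7 against 63.0 and 50.8. The third, 1420039_s_at, was below the filter at 18.2 and 13.7 in the controls and read 62.7 and 72.8 in the RNAi arrays. Its groups did not overlap, but 3 of its 4 signals were under the median of the array, and it was not tested.

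Phc1 encodes a polyhomeotic protein, which polymerises through its SAM domain and helps PRC1 to cluster. Its single probe set read 7449 and 7031 in the controls against 6286 and 6538 in the RNAi arrays, without overlap. At 88.6% of control it did not pass among probe sets (-0.17 ± 0.056, adjusted p = 0.0624). With 1 probe set per gene, the same signals gave a limma adjusted p of 0.0447 (unadjusted 0.00880 against 0.00993 among probe sets). The call of Phc1 thus depends on which fit is used. It also passed among probe sets after quantile normalization (-0.19, adjusted p = 0.0313) and with the top 40% of probe sets (adjusted p = 0.0471). The gene-level call of Phc1 held in 3 of 11 alternatives. It ended without control replicate 1 (-0.13, adjusted p = 0.242), control replicate 2 (-0.22, 0.0531), RNAi replicate 1 (-0.15, 0.159) or RNAi replicate 2 (-0.20, 0.0515), and without a filter (0.0778).

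**Figure D2:**
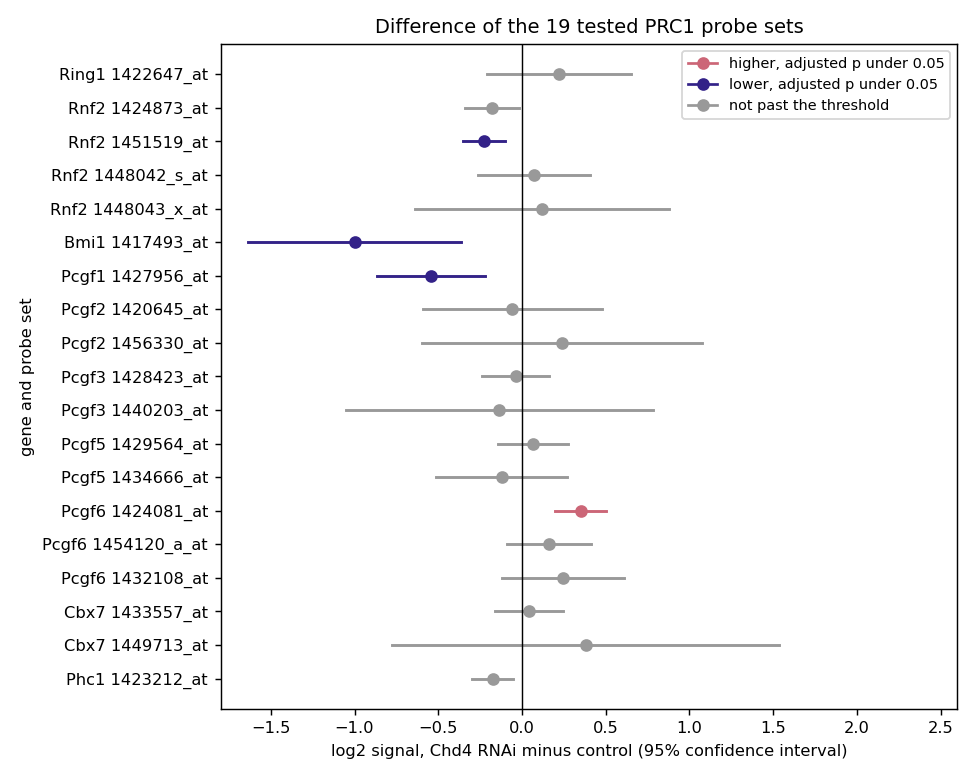
Log2 signal in Chd4 RNAi minus control for the 19 tested PRC1 probe sets, each with the 95% confidence interval of the limma fit over 2 arrays a group; coloured points passed at an adjusted p under 0.05. Pcgf6 1424081_at (0.35) is the one coloured point above 0, and Rnf2 1451519_at (-0.23), Pcgf1 (-0.54) and Bmi1 (-1.0) are those below it.

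The PCGF subunits of variant PRC1 include 1 that fell, 1 that rose at 1 of its probe sets, and a pair with no call. Pcgf1, also called Nspc1, recruits Bcor and the CpG island reader Kdm2b. Its single probe set read 377 and 409 in the controls against 274 and 266 in the RNAi arrays. Both groups were tight and well apart, and Pcgf1 fell to 68.6% of control (-0.54 ± 0.15, adjusted p = 0.0300). The call ended without control replicate 1 (log2 difference -0.60, adjusted p = 0.0758), control replicate 2 (-0.49, 0.167) or RNAi replicate 2 (-0.52, 0.0695).

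Pcgf6, also called Mblr, joins L3mbtl2, Mga, Max and E2f6. Its probe set 1424081_at read 2770.4 and 2583 in the controls against 3531 and 3291 in the RNAi arrays. Both RNAi signals lay above both controls, and this probe set rose 1.27-fold (0.35 ± 0.070, 95% confidence interval 0.20 to 0.50, adjusted p = 0.00714). It kept its call without each of the 4 arrays in turn, at log2 differences of 0.30 to 0.40 and adjusted p values up to 0.0478. The other probe sets of Pcgf6, which share a source record with each other, had positive differences without passing. The probe set 1432108_at read 313 and 249 against 323 and 339, without overlap (0.24 ± 0.17, adjusted p = 0.379). For 1454120_a_at the controls read 2074 and 2072 and the RNAi arrays 1996 and 2688, so that only RNAi replicate 2 was high. Its log2 difference of 0.16 ± 0.11 became 0.38 without RNAi replicate 1 (adjusted p = 0.00996) and -0.054 without RNAi replicate 2 (adjusted p = 0.764).

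Pcgf3 and Pcgf5, which work with Auts2 and casein kinase subunits and are known for starting Polycomb silencing of the inactive X chromosome, had no called probe set. The bright probe set of Pcgf3 read 1299 and 1261 in the controls against 1322 and 1175 in the RNAi arrays, with the controls inside the range of the RNAi arrays. That of Pcgf5 read 961 and 1079.8 against 1084 and 1050.3, again overlapping. Their log2 differences were -0.039 (95% confidence interval -0.24 to 0.16) and 0.067 (-0.14 to 0.28). Whether either differed in response from Pcgf1 or Pcgf6 was not tested. A further Pcgf5 probe set, 1434666_at, read 227 and 234 against 204 and 219.8, without overlap and without passing (-0.12 ± 0.18, adjusted p = 0.717). The remaining 3 probe sets of the pair were dim and overlapped: Pcgf3 1440203_at lay between 51.1 and 97.2, Pcgf3 1428424_at between 6.27 and 82.8 and Pcgf5 1453636_at between 25.8 and 57.9.

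The pattern nearest to that of Pcgf6 1424081_at was sought over the 4 arrays, by the Euclidean distance of log2 signals centred on the control mean, among 12615 other genes. Zfp512b, Dennd5b and Tasor were nearest, at distances of 0.018, 0.027 and 0.029. Tasor encodes a subunit of the HUSH silencing complex. It rose 1.29-fold (adjusted p = 0.0409), while Zfp512b and Dennd5b had log2 differences of 0.35 (adjusted p = 0.0780) and 0.34 (adjusted p = 0.185). With 4 arrays such likeness is a description only.

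With each gene represented by its brightest probe set, 12616 genes were tested, all 10 PRC1 genes among them. In that fit Pcgf6 rose and Bmi1, Pcgf1 and Phc1 fell (limma adjusted p = 0.00451, 0.0336, 0.0217 and 0.0447), or 4 of 10, against 20.5% of all genes tested, 11.7% as higher and 8.81% as lower. The bright probe set of Rnf2 that represents it did not pass (adjusted p = 0.102). The median log2 difference of the 10 was -0.049, against 0.014 over all genes. The groups of the representing probe sets did not overlap for 6 of the 10, against 60.6% of all genes. After averaging over every probe set of a gene, Pcgf1 alone of the 10 remained called, and Pcgf6 stood at 0.25 (adjusted p = 0.0988), Bmi1 at -1.14 (0.145), Phc1 at -0.17 (0.0626), Rnf2 at 0.0027, Cbx7 at 0.84 (0.0928) and Pcgf3 at -0.56 (0.473).

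**Figure D3:**
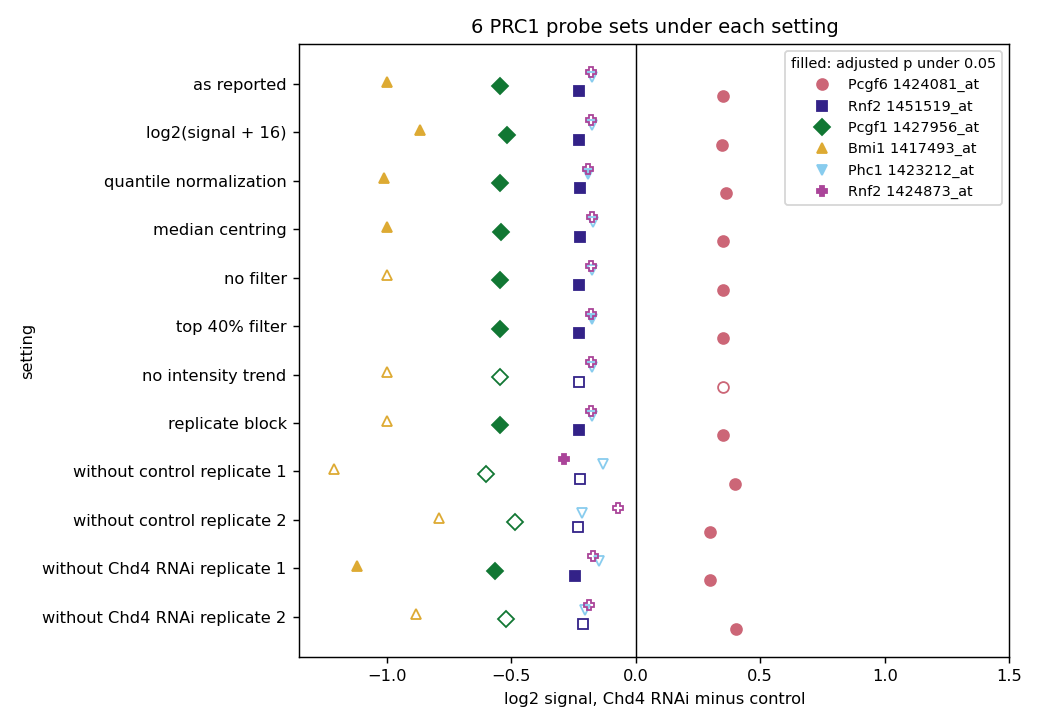
Log2 signal in Chd4 RNAi minus control of 6 PRC1 probe sets under each setting, filled where the adjusted p was under 0.05. Shown are those with an unadjusted limma p under 0.05 in the reported fit, and the other tested PRC1 probe sets are left out. Pcgf6 1424081_at is filled in every row but that without an intensity trend, whereas Bmi1 1417493_at, which has no value under the top 40% filter, and Pcgf1 lose the call without control replicate 1, control replicate 2 or Chd4 RNAi replicate 2.

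The genes that encode the other proteins of PRC1 were taken from a list of 31 symbols, of which 27 were named on the array and 26 were tested. Of these, 4 rose and 2 fell (23.1% against 20.5% of all genes), with a median log2 difference of -0.0011. In the Pcgf6 form, L3mbtl2, a reader protein, rose 1.24-fold from 1227 and 1133 to 1452 and 1469 (adjusted p = 0.0219). E2f6, a repressive E2F factor, rose 1.62-fold at its bright probe set, from 884 and 721 to 1213 and 1374 (adjusted p = 0.00164). Its dim probe set 1437914_at went the other way, from 87.9 and 96.5 to 31.3 and 8.86, and was not tested. Max and Mga, the DNA-binding pair of this form, did not pass (0.28, adjusted p = 0.0650, and -0.15, adjusted p = 0.170). Hdac2, a deacetylase shared with NuRD, went from 5698 and 5793 down to 4402 and 4813 at the probe set used (log2 difference -0.32, adjusted p = 0.00389).

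In the Pcgf1 form, in which Pcgf1 itself fell, the corepressor gene Bcor rose 1.37-fold, from 482 and 421 to 589 and 645 (adjusted p = 0.0247). Skp1, a subunit shared with SCF ubiquitin ligases, rose 1.26-fold from 12718 and 13428 to 16711 and 16306 (adjusted p = 0.000666). Kdm2b and the deubiquitinase gene Usp7 did not pass, at -0.078 (adjusted p = 0.459) and -0.037 (adjusted p = 0.698). Of the canonical readers, Cbx6 fell 1.38-fold from 1249 and 1218 to 873 and 913 (adjusted p = 0.00344), and Cbx2 stood at -0.25 (adjusted p = 0.327). Phc2 and Phc3, the relatives of Phc1, had log2 differences of 0.021 (adjusted p = 0.927) and 0.33 (adjusted p = 0.135). The calls of L3mbtl2 and Bcor ended without control replicate 2 (adjusted p = 0.135 and 0.142) and without RNAi replicate 2 (0.0653 and 0.111), and that of L3mbtl2 also without RNAi replicate 1 (0.0548). When probe sets were averaged, E2f6 turned to -0.89 (adjusted p = 0.0779), and Bcor (0.44, adjusted p = 0.0991) and Hdac2 (-0.32, adjusted p = 0.142) no longer passed. In the probe-set fit, Bcor 1429438_at (0.73, limma adjusted p = 0.0294) and Hdac2 1449080_at (-0.59, 0.000151) also passed in the same direction. A further, dimmer probe set of each did not pass (0.15 and -0.052).

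The ubiquitin mark that PRC1 writes is removed by H2A deubiquitinases. Of 8 such genes and their partners, all tested, 2 rose and 1 fell (37.5% against 20.5% of all genes), with a median log2 difference of 0.015. Asxl1, which activates the deubiquitinase Bap1, rose 1.5-fold, from 1599.8 and 1604 to 2405 and 2404 (adjusted p = 0.000187). Usp16 rose 1.27-fold, from 928 and 793 to 1057 and 1122 (adjusted p = 0.0344). Usp3 fell 1.6-fold, from 783 and 868 to 514 and 517 (adjusted p = 0.00140). Bap1 itself read 3014 and 2825 against 2573 and 2679 and did not pass (-0.15, adjusted p = 0.134). The call of Usp16 ended without control replicate 2 (adjusted p = 0.227), RNAi replicate 1 (0.0504) or RNAi replicate 2 (0.121), and averaging of probe sets ended those of Asxl1 (log2 difference 0.23 in place of 0.59, adjusted p = 0.290), Usp16 (0.16 in place of 0.34, 0.525) and Usp3 (-0.57 in place of -0.68, 0.175). All 5 probe sets of Usp3 were lower, against 2 of 3 higher for Asxl1 and 1 of 2 for Usp16. Of those of Usp3, 1435531_at (-0.14), 1441056_at (-0.29) and the dim, untested 1444635_at (-0.72) overlapped between the groups. In the probe-set fit, Asxl1 1435077_at (0.42, limma adjusted p = 0.0342) and Usp3 1425023_at (-1.03, 0.00177) also passed in the same direction. The other probe set of Usp16 did not pass (-0.028, adjusted p = 0.972).

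Among known targets of the complex, the developmental genes were mostly dim. Of the 12 germ-cell genes of the Pcgf6 form on the array, 11 lay above its median. Of 52 Hox and other developmental regulator genes listed, 47 were on the array and 11 were bright enough to be tested, of which 5 lay above the median of the array. Limma called 0 of the 11, and 1, Hoxc13, had an unadjusted p under 0.05 (101 and 111 against 51.0 and 52.5, adjusted p = 0.0536). Over all genes 20.5% were called and 33.8% had such a p. Hoxc13 passed as lower with an offset of 16 (-0.85, adjusted p = 0.0491) and without an intensity trend (adjusted p = 0.0340), and its adjusted p was between 0.0541 and 0.228 in the other alternatives that gave it a value. Without RNAi replicate 1, Hoxa7 passed instead (-2.16, adjusted p = 0.0410), with RNAi signals of 90.5 and 14.03 against 67.6 and 58.5 in the controls. The median log2 difference of the 11 was -0.15. Of 11 tested germ-cell genes that the Pcgf6 form is known to bind, 1 rose and 2 fell (27.3% against 20.5% of all genes), with a median log2 difference of -0.18. Ddx4, a germ-cell RNA helicase gene, went from 1506 and 1505 to 356 and 329, 4.40-fold lower (adjusted p = 6.29e-07), and Tdrkh, of the piRNA pathway, fell 1.76-fold from 369 and 380.3 to 239 and 189.5 (adjusted p = 0.00623). Others had positive differences without passing: Smc1b, a meiotic cohesin gene, read 23.5 and 92.4 against 207 and 94.5 (1.59, adjusted p = 0.0763), and Taf7l read 76.4 and 95.5 against 159 and 137 (0.79, adjusted p = 0.0641). Tex101, too dim in the controls to enter the test, read 6.34 and 3.46 against 114 and 90.8, without overlap. These 3 were named after their values were seen. Uncalled genes with negative differences were Slc25a31 (-0.69, limma adjusted p = 0.125), Tex11 (-0.33, 0.225), Stag3 (-0.21, 0.186) and Stk31 (-0.18, 0.330). Of the 11 tested germ-cell genes, 5 had a positive difference. Dazl, a germ-cell RNA-binding protein gene, rose 1.75-fold from 186 and 193 to 254 and 433 (adjusted p = 0.0309). The call of Dazl ended without control replicate 1 (adjusted p = 0.0664), control replicate 2 (0.0541) or RNAi replicate 2 (0.247) and when its probe sets were averaged (0.0816).

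**Figure D4:**
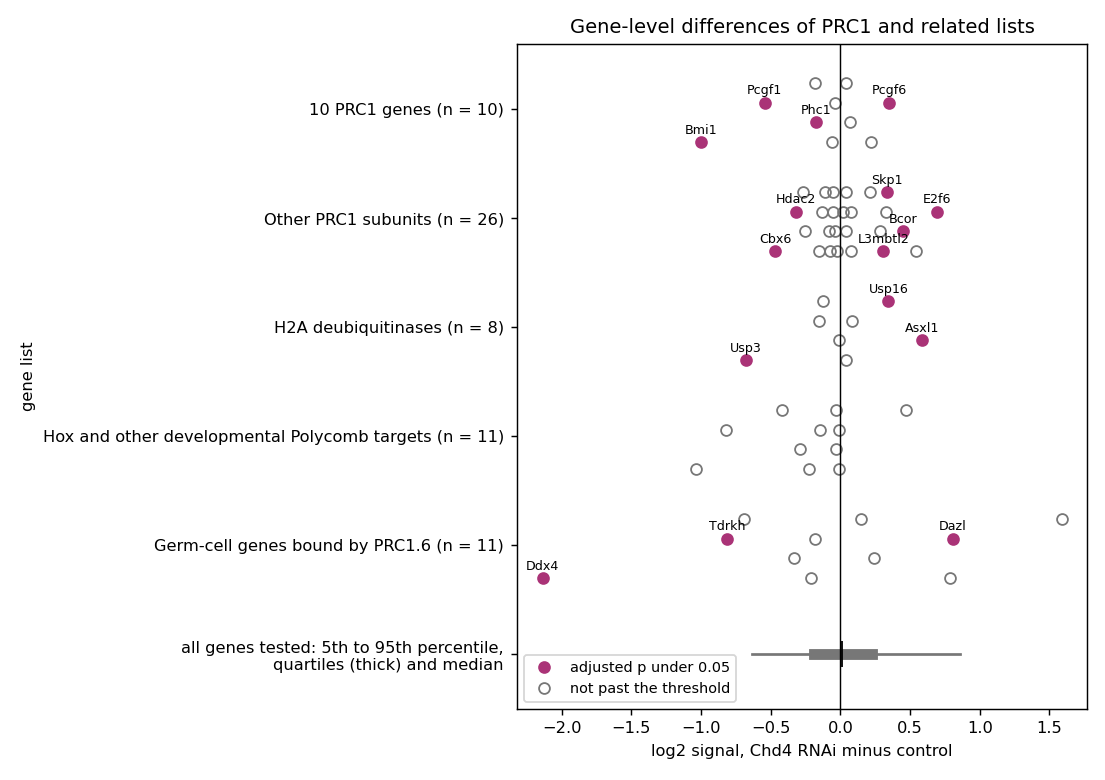
Gene-level log2 signal in Chd4 RNAi minus control for the 10 PRC1 genes and 4 related lists; filled points passed at an adjusted p under 0.05, and the bottom bar gives the 5th to 95th percentile, quartiles and median of all 12616 genes tested. The PRC1 genes lie between -1.0 (Bmi1) and 0.35 (Pcgf6), and the Hox and developmental list has no filled point.

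In bulk RNA, fewer cells of a type and less RNA per cell cannot be told apart. Of the 8 trophectoderm markers 6 were tested and 2, Tfap2c and Krt18, rose, with summed signals over the 8 of 2821 and 2833 in the controls against 5339 and 5636 in the RNAi arrays. Of the 3 fibroblast markers tested 1, Thy1, rose, and the summed signals of the 8 went from 481 and 559 to 895 and 794, with Col1a1, Col3a1, Postn, Twist2 and Lum under the filter. That difference was in Thy1 (176 and 199.5 to 601 and 547): the other 7 summed to 305 and 359.5 against 295 and 247, and Pdgfrb, Postn and Lum were lower without overlap. The 6 trophectoderm markers other than Tfap2c and Krt18 summed to 1046 and 1168 against 1197 and 1193, with Cdx2 and Elf5 under the filter. Summed signals overlapped between the groups for the embryonic stem cell list, at 112895 and 116105 against 114734 and 112170. There Esrrb and Klf4 fell and Dppa5a rose (limma adjusted p = 0.00445, 0.00703 and 0.0112). The other 5 embryonic stem cell markers summed to 73035 and 74521 against 72474 and 71604, lower without overlap. Sums also overlapped for the primitive endoderm list, at 759 and 749.8 against 761 and 677, where Lama1 fell (381 and 376 to 280.4 and 241). Without Lama1, the other 7 primitive endoderm markers summed to 378 and 374 against 480.4 and 436, without overlap. Those of the neural list went from 1675 and 1636 to 1763 and 1752, where Tubb3 rose. Without Tubb3, the other 6 neural markers went the other way, from 399 and 474 to 299 and 213, with the untested Sox1 at 129 and 183 against 21.3 and 5.40. The part of these markers in the PRC1 differences was not tested.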

How the data were processed

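Expression was measured on 4 single-colour Affymetrix arrays, 2 per group. The authors deposited 1 intensity per probe set and array on a linear scale, computed by MAS5 (named in the submitters' processing notes). The MAS5 version and scaling target are not given in the sources used here, and detection calls were not used. MAS5 gives dim features a wide error. Titles of the samples gave the groups. Gene names came from the platform's annotation (34945 with 1 symbol, 932 with several and 9160 with none of 45037), and 0 probe sets named a member beside another gene.

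Differences are log2 signal in Chd4 RNAi minus control, tested with limma 3.58.1 under R 4.3.3 (lmFit, then eBayes with its trend option, two-sided). The degrees of freedom were 2 residual and 9.24 prior. All probe sets past the brightness filter entered, with Benjamini-Hochberg adjustment and a threshold of 0.05. A second fit used the brightest probe set of each gene with 1 symbol. Errors are standard errors of the fit. Same-numbered arrays did not deviate together (r = -0.0019 between deviations from the group means over probe sets), so no block was used. The correlation of replicates over probe sets tested was 0.984 in the controls and 0.982 in the RNAi group, against 0.968 to 0.969 between groups. All member probe sets were named, up to 4 called genes with the smallest p from each list, Chd4, and the 3 genes nearest to the member probe set with the smallest p; other genes were named with their values to complete a complex. Members, lists and motifs were chosen with earlier results of these data known. The floor at the median signal was chosen after the values were seen.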

Additional observations from a re-analysis of the deposited data

How the results depend on the processing

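With 2 arrays a group, the calls depend on the variance model and on single arrays. Without an intensity trend the fit called 0 PRC1 probe sets, 0 of all probe sets in either direction (lowest adjusted p = 0.0594) and 0 PRC1 genes, and in the other lists only 1 gene lower among the developmental targets and 1 lower among the germ-cell genes. Leaving out 1 array gave 1 to 2 PRC1 probe sets higher and 0 to 3 lower (0 without control replicate 2 or RNAi replicate 2), and 1434 to 1742 of all probe sets higher and 997 to 1793 lower, against 2017 and 1830. PRC1 genes were then 1 higher and 0 to 2 lower, other PRC1 subunits 2 to 4 higher, deubiquitinases 1 to 2 higher, germ-cell genes 0 to 1 higher and developmental targets 0 to 1 lower.

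Averaging the probe sets of a gene left 0 PRC1 genes higher and 1 lower, 2 other PRC1 subunits higher and 1 lower, 0 deubiquitinases called and 0 germ-cell genes higher; it turned Rnf2 to 0.0027, Pcgf2 to 0.090 and Pcgf5 to -0.070, and moved Cbx7 to 0.84 and Pcgf3 to -0.56, neither called. The averages of Cbx7, Pcgf3, Rnf2, Bmi1 and Pcgf5 each took in a probe set under the filter. These were Cbx7 1420039_s_at (2.10), Pcgf3 1428424_at (-1.52), Rnf2 1448041_at (0.23), Bmi1 1448733_at (-1.27) and Pcgf5 1453636_at (-0.16). Averages over tested probe sets only were not taken. Without a filter 1 PRC1 gene was lower and 1 deubiquitinase higher. With an offset of 16, 1 developmental target was lower. With the replicate number as a block, 2 PRC1 probe sets and 1 PRC1 gene were lower and 1 deubiquitinase was higher; Bmi1 1417493_at (-1.0, adjusted p = 0.0574) lost its call, as did the genes Bmi1 and Phc1. Sample titles give a replicate number but do not say whether same-numbered arrays form a pair.

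Leaving out 1 array turned the sign of uncalled probe sets only: Rnf2 1448043_x_at (-0.35 to 0.58), Pcgf2 1420645_at (-0.37 to 0.25) and 1456330_at (-0.19 to 0.66), Pcgf3 1428423_at (-0.12 to 0.046) and 1440203_at (-0.54 to 0.27), Pcgf5 1429564_at (-0.017 to 0.15), Pcgf6 1454120_a_at (-0.054 to 0.38), and Cbx7 1433557_at (-0.061 to 0.15) and 1449713_at (-0.32 to 1.08). Of 218 tested values of single probe sets and genes under the settings that kept all arrays, 193 kept direction and side of the threshold, 20 lost the call, 2 gained it and 3 turned. Chd4 probe sets are among them, and most were of probe sets and genes without a call to lose. Leaving out 1 array turned the direction of 17 of 128 values. Beyond the values of the probe sets that enter an average, the cause of these shifts was not tested. Of the tested PRC1 probe sets, 2 lay under the median signal of the array.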
